A study of Mus musculus with 3 samples.

Results

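The wild-type library is 1 of the 3 RNA libraries of the series and was described alone, from its own columns of estimated counts, TPM and FPKM, with no comparison of genotypes. It was made from spinal cord of C57BL/6 mouse embryos at embryonic day 13.5, labelled wild type. The other 2 libraries, in which Nestin-Cre, driven in neural progenitors, recombines floxed alleles of the β-catenin gene Ctnnb1 (dE3: exon 3; cKO: exons 2 to 6), share its strain, stage and tissue and were not used here. Neither the number of embryos in the wild-type sample nor its axial levels is stated. With 1 library there is no spread between replicates, so each level is given with a 95% exact Poisson interval of its count, scaled to TPM, which covers counting error only. TPM (transcript counts scaled to length and to a fixed library total) divides by transcript length, so that levels of different genes can be set side by side.

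At this stage the cord holds dividing progenitors around the central canal and postmitotic neurons in the mantle around them. Progenitors are patterned along the dorsoventral axis by Wnt and BMP signals from the roof plate and by Sonic hedgehog from the floor plate, and each domain makes its own neuron classes, marked by transcription factors. Hox genes, which lie in clusters whose gene order follows the body axis, record position along the cord. Motor neurons and many ventral interneurons are born early, dorsal horn neurons later, and progenitors then turn to glia. Dorsal root ganglia, meninges and vessels adjoin or enter the cord.

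The library held 32167470 estimated counts over 51826 listed genes and 128622 listed transcripts. TPM was above 0 for 27500 genes (53.1%). At least 1 TPM was reached by 17589 genes (33.9% of all listed), 10 TPM by 10884 (21.0%) and 100 TPM by 2005 (3.87%). Among the 21780 nuclear protein-coding genes these shares were 64.0%, 47.4% and 8.86%, with a median of 7.76 TPM and an upper quartile of 38.8 TPM. A single count is worth little at this depth. For a gene with no counts the limit given here is 3 counts, a 1-sided bound that is tighter than the 2-sided intervals used for genes with counts, which corresponds to 0.146 TPM for the forebrain gene Emx2 and to 0.697 TPM for the albumin gene Alb.

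The most abundant nuclear gene was Tuba1a (chromosome 15, 98949841 to 98953551, minus strand, GRCm38), the α-tubulin of growing neurons, at 10927 TPM (95% counting interval 10883 to 10972). It stood 7.82 times (7.73 to 7.91) above Tuba1b, at 1397 TPM, although 72.9% of the 50-base words of Tuba1a transcripts also occur in other genes, most of them in Tuba1c. Reads of these genes could therefore be divided between them in more than 1 way. Eef1a1, the elongation factor that brings aminoacyl-tRNA to the ribosome, followed at 6336 TPM (6303 to 6369). Only Gm10925, a chromosome 1 pseudogene of the stretch described below, lay between Tuba1a and Eef1a1 among nuclear genes, at 7422 TPM.

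Among the 20 most abundant genes outside the mitochondrial, ribosomal protein and provisional gene names, the tubulins, actin and their regulators took many places. The β-tubulins among them were Tubb2b at 3805 TPM, Tubb5 at 2417, the neuron-specific Tubb3 at 2363 and Tubb2a at 2210. Tubb5 exceeded Tubb3 by 1.02 times (1.01 to 1.03), a difference just above counting error. Tubb3 and Tubb5 share almost no 50-base words with other genes (0% and 0.0892%), whereas Tubb2a and Tubb2b share 49.6% and 36.9% of theirs, mainly with each other. Stathmin (Stmn1), which destabilises microtubules, stood at 2784 TPM. The actin regulators were Tmsb10 at 2392 TPM, cofilin (Cfl1) at 2249, Tmsb4x at 2007 and Marcksl1 at 1919, beside γ-actin (Actg1) at 1928. The remaining places went to the imprinted proteolipid gene Nnat (2223 TPM), Eef2 (2179), calmodulin (Calm2, 2175), prothymosin (Ptma, 1870), ubiquitin (Ubb, 1860), the chaperone Hsp90ab1 (1841), Tpt1 (1809) and the surface sialoglycoprotein gene Cd24a (1782). In all, 80 genes reached 1000 TPM, and 83 ribosomal protein genes had a median of 562 TPM and together 5.11% of the total.

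The share of the total in the 10, 100 and 1000 most abundant genes was 8.06%, 23.1% and 50.5%. The 13 protein genes of the mitochondrial genome held 7.36% of TPM, led by mt-Co1 at 15849 TPM, the highest value in the library. A further 2.93% stood in 7 listed genes on chromosome 1 between 24611535 and 24616197, an annotated stretch of pseudogenes. Their sequences matched mitochondrial genes nearly completely, with 97.1% to 100% of 50-base words shared. Gm28437 had 58955 counts where its match mt-Co3 had 58961, and Gm28661 had 51279 where mt-Co2 had 51347. Counts of these pairs cannot be assigned to one place from the tables, and both enter every TPM total used here.

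To set levels by cell class, 49 lists of genes with 742 distinct symbols were used, of which 740 were found. Neuronal structure led the order of list medians. The 26 growth cone and actin genes had a median of 806 TPM, and the 20 pan-neuronal genes one of 634 TPM. Each of the 20 was above 100 TPM, a level reached by 3.87% of all listed and 8.86% of nuclear protein-coding genes. Leaving out the Hox clusters and the transcript panel, next came 17 housekeeping genes (314 TPM), 15 tubulins (310), 26 RNA-binding genes (136) and 21 genes of synaptic vesicles and release (132). Progenitor genes had a median of 81.3 TPM and cell division genes one of 15.2 TPM. At the foot stood the lists of cartilage (0.501 TPM), lens and retina (0.321), forebrain (0.0847) and liver and gut (0). In bulk RNA, fewer cells of a type and less RNA per cell cannot be told apart, so that these medians do not count cells.

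**Figure D1:**
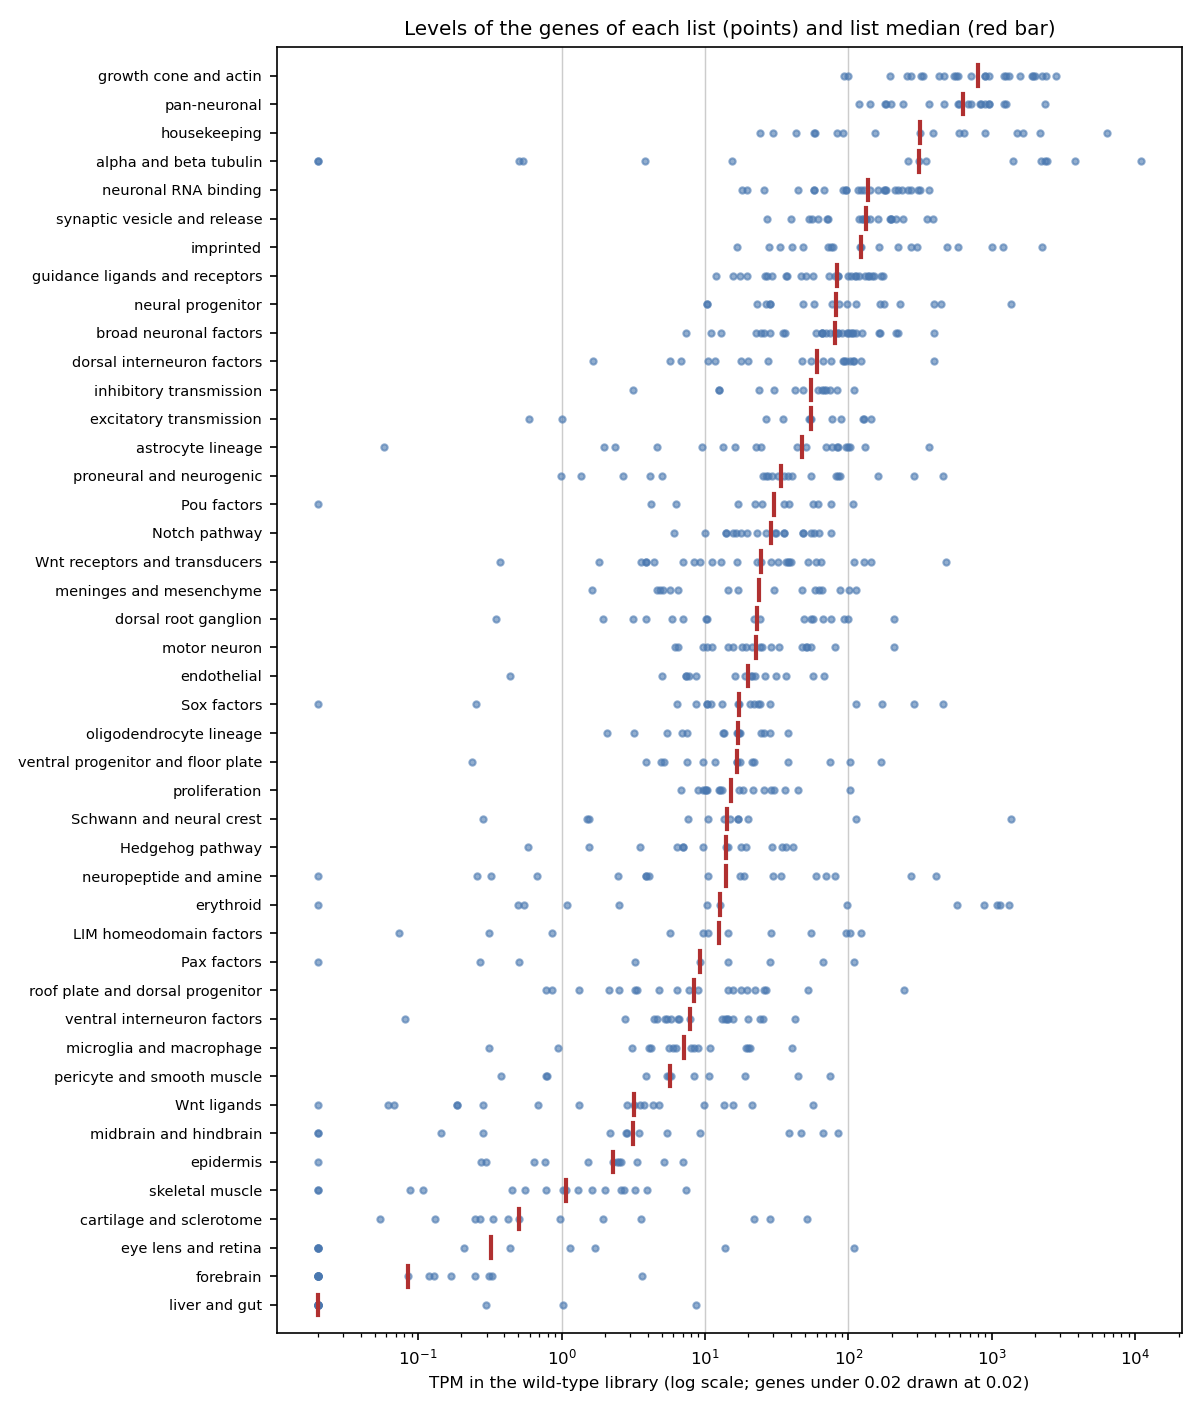
Level in TPM (log axis) of each member of each list in the wild-type library, 1 point per gene, with the list median as a red bar; the Hox clusters and the transcript panel are left out. Lists are ordered by median, from growth cone and actin genes at 806 TPM down to liver and gut genes at 0, and single members often lie far from their list's median.

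Pan-neuronal genes ranged from Syt1, the calcium sensor of vesicle release, at 118 TPM to Tubb3 at 2363. The growth-associated stathmin Stmn2 stood at 1213 TPM and the dendritic microtubule protein gene Map2 at 580. The intermediate filament genes were among the highest, with internexin (Ina) at 1264 TPM, Nefl at 840 and Nefm at 820, while the heavy chain Nefh, which comes late in development, stood at 24.1. Gap43, a growth cone protein gene, was at 959 TPM and the ubiquitin hydrolase gene Uchl1 at 953. The order of levels was resolved well: 16 of 19 neighbouring pairs had intervals that did not overlap.

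Genes of axon growth other than the tubulins were of the same order. Basp1, a growth cone membrane protein gene, stood at 1583 TPM, and the collapsin response mediators Dpysl3 and Crmp1 at 1312 and 1248. Actb, the cytoplasmic β-actin often used as a reference, stood at 902 TPM, under its γ counterpart Actg1. Of the tubulins, the α genes Tuba3a and Tuba3b had no counts, and Tuba8 and the platelet gene Tubb1 stayed at 0.506 and 0.542 TPM.

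Genes of the synapse were present throughout their list. Rab3a, the vesicle GTPase, led with 389 TPM, followed by the vesicle SNARE gene Vamp2 at 352, its partner Snap25 at 239 and Syt11 at 213. Stx1a, a syntaxin of the plasma membrane, stood at 72 TPM. The active zone scaffolds Pclo (27.2 TPM), Rims1 (39.7) and Bsn (55.4) were among the lowest, with the vesicle gene Syn2 at 53.2. All 21 members passed 10 TPM, against 47.4% of nuclear protein-coding genes.

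Progenitor genes spanned a wide range. Fabp7, a fatty acid-binding protein of radial glia, stood at 1361 TPM (1338 to 1383), Dbi at 444, the intermediate filament gene Vim at 395 and Id4 at 229. The SoxB1 factors, which hold cells in the progenitor state, were unequal: Sox2 stood at 112 TPM, and Sox1 and Sox3 at 10.3 and 10.4. The ratio of Sox2 to Sox1 was 10.9 (10 to 11.9). Pax6 stood at 28.2 TPM and Nes, the filament gene nestin whose enhancer drives the Cre of the other genotypes, at 97.4. Several of these genes are also made outside the ventricular zone (Vim in mesenchyme, Fabp7 in Schwann cell precursors), and their split by source was not measured.

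Cell division genes were lower and closer together. Pcna, the sliding clamp of replication, was highest at 103 TPM, followed by Top2a at 44.6, the helicase subunits Mcm6 at 36.4 and Mcm2 at 30.5. The proliferation marker Mki67 stood at 17.2 TPM, and the lowest was Cenpf at 6.76. All 18 passed 1 TPM and 15 passed 10 TPM, against 64.0% and 47.4% of nuclear protein-coding genes. Only 7 of 17 neighbouring pairs had intervals that lay apart.

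Genes of neurogenesis were led by the SoxC factors, which act in newborn neurons, with Sox4 at 459 TPM and Sox11 at 285. The proneural gene Neurog2 stood at 25.5 TPM, well above Neurog1 at 4.12 and Neurog3 at 2.68. Atoh1, which marks the dorsalmost neuron-producing progenitors, and Ptf1a, which directs dorsal progenitors to the inhibitory fate, stood at 1.36 and 0.993 TPM. Of the later factors, Neurod6 reached 160 TPM, Hes6 86.7, Nhlh2 84.2 and Neurod2 82.2. Of 20 members, 15 (75%) passed 10 TPM, beside 47.4% of nuclear protein-coding genes.

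Factors and signals of progenitor domains came next. On the dorsal side the list of 20 had a median of 8.35 TPM. Zic1 was the exception at 243 TPM, 4.68 times (4.44 to 4.93) its paralogue Zic2 at 52.0, with Msx3 at 26.6. The roof plate genes Lmx1a and Gdf7 were both under 1 TPM (0.857 and 0.774), while Msx1 stood at 17.9 and Msx2 at 2.15. On the ventral side the 16 members had a median of 16.8 TPM. Netrin (Ntn1), the attractant made by floor plate and ventricular zone, led with 169 TPM, followed by Spon1 at 103, Sulf1 at 74.2 and Olig1 at 37.7. The floor plate factor Foxa2 stood at 5.15 TPM, its signal Shh at 9.72 and the neighbouring domain's Nkx2-2 at 17.4. Olig2, the factor of motor neuron and oligodendrocyte progenitors, was at 16.7 TPM, so that Olig1 exceeded it 2.26 times (2.03 to 2.51).

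Factors of dorsal neuron classes had a median of 60.5 TPM over 20 genes and those of ventral classes one of 7.82 TPM over 19 genes. Without the members that another list also holds the medians were 17.7 and 6.5 TPM, and no difference between the lists was tested. The dorsal list is not confined to dorsal cells, as it shares Foxd3 with the ventral list and Isl1 with the motor neuron list. The highest dorsal members were Ebf3 (397 TPM), Lhx1 (122), Pax2 (110) and Ebf1 (108). Within the dorsal horn, Pax2 and Lhx1 mark inhibitory neurons, while Tlx3 (93.1 TPM) and Lmx1b (96.0) mark excitatory ones. Pax2 exceeded Tlx3 by 1.18 times (1.12 to 1.24). Lbx1, which is made by both, stood at 92.2 TPM, and the intervals of Lmx1b, Tlx3 and Lbx1 overlapped. The part of neurons outside the dorsal horn in these values was not tested. The factors of the most dorsal class, Lhx2, Lhx9 and Barhl1, were at 10.5, 5.67 and 11.7 TPM.

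Of the ventral classes, Evx1 and Evx2 (commissural interneurons) stood at 5.78 and 5.29 TPM and En1 (inhibitory ventral interneurons) at 5.45. The intervals of Evx1, En1 and Evx2 overlapped in sequence. Sim1, of the ventralmost class, was at 2.78 TPM. The highest members were Bhlhe22 (42.4 TPM), Shox2 (25.2), Sox21 (24.3) and Foxd3 (19.9), genes that are also made in dorsal neurons, progenitors or neural crest.

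Motor neuron genes had a median of 22.6 TPM over 20 members, all above 1 TPM, a level reached by 64.0% of nuclear protein-coding genes. Mnx1, the factor most particular to motor neurons in the cord, stood at 11.2 TPM and Isl2 at 28.7. Isl1, at 54.6 TPM, was 4.90 times (4.35 to 5.53) above Mnx1, and it is also made in dorsal interneurons and sensory ganglia. The highest members, Prph (208 TPM), Slit2 (81.2), Isl1 and Ret (51.6), are each shared with other cells. The acetylcholine genes differed among themselves, with the vesicular transporter Slc18a3 at 33.0 TPM, the choline transporter Slc5a7 at 18.0 and the synthesising enzyme Chat at 6.19 (5.41 to 7.05).

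Among genes of excitatory transmission, Slc17a6, the vesicular glutamate transporter of the spinal cord (chromosome 7, 51622006 to 51671119, plus strand), stood at 129 TPM (126 to 132). Its paralogues Slc17a7 and Slc17a8 were at 0.593 and 1.01 TPM, so that the ratio of Slc17a6 to them was 217 (143 to 347) and 128 (99.1 to 168). Of the receptors, the AMPA subunit gene Gria2 led with 143 TPM, 2.66 times (2.56 to 2.76) Gria1 at 53.7, and Gria4 stood at 76.2. The NMDA subunit gene Grin1 was at 53.4 TPM and Grin2b at 26.6, a ratio of 2.0 (1.92 to 2.10).

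Inhibitory genes were of a similar order, with a median of 55.0 TPM over 14 members against 54.4 TPM over the 12 excitatory ones. Slc32a1, the vesicular transporter of GABA and glycine, stood at 65.8 TPM (63.2 to 68.5), and Slc17a6 exceeded it 1.96 times (1.87 to 2.05). The GABA-synthesising enzymes Gad1 and Gad2 were at 74.3 and 42.4 TPM, and the glycine transporter Slc6a5, which marks glycinergic neurons, was at 48.6. The glycine receptor subunit known for embryonic receptors stood above its adult counterpart: Glra2 was 5.52 times (4.95 to 6.15) Glra1.

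Neuropeptide and amine genes ranged from 0 to 409 TPM. Npy (chromosome 6, 49822710 to 49829507, plus strand) stood at 409 TPM (394 to 424) and Sst (chromosome 16, 23889581 to 23890844, minus strand) at 273 (262 to 285), a ratio of 1.5 (1.42 to 1.58). Both are made by inhibitory interneurons of the dorsal horn, Sst by excitatory ones as well. Tac1, the substance P precursor gene, was at 81.1 TPM and Nxph1 at 69.2. The serotonin genes Fev and Tph2, whose cells lie in the brainstem, were at 0.257 and 0.671 TPM, and Vip had no counts. Tyrosine hydroxylase (Th) stood at 18.7 TPM while Ddc, the next enzyme of its pathway, stood at 2.49.

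The 20 genes of the astrocyte lineage ranged from near 0 to 366 TPM, with a median of 47.2. Gfap had 2 counts, or 0.0577 TPM (0.00699 to 0.208), Aqp4 stood at 1.98 TPM and S100b at 2.37. The highest were Sparcl1 at 366 TPM, Hopx at 130, Aldoc at 103 and Nfib at 98.9, followed by the GABA transporter gene Slc6a11 at 95.7 and Apoe at 83.4, and Clu, Hepacam, Mlc1 and Gjb6 lay between 16.2 and 4.65. The glial marker Aldh1l1 stood at 43.7 TPM. The glutamate transporter genes Slc1a3 (166 TPM), made by radial glia, and Slc1a2 (76.4) differed 2.17 times (2.11 to 2.24). In the oligodendrocyte list the highest was Olig1 at 37.7 TPM, followed by the myelin genes Mbp at 28.4 and Cnp at 25.9 and by Bcas1 at 24.6. The precursor genes Pdgfra, Sox10 and Cspg4 stood at 17.1, 17.0 and 5.43 TPM, and Pdgfra and Sox10 are also made in mesenchyme and neural crest.

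All 4 Hox clusters were expressed along most of their length. Of 39 genes, 36 passed 1 TPM, 30 passed 10 TPM and 17 passed 100 TPM, against 64.0%, 47.4% and 8.86% of nuclear protein-coding genes. The HoxB cluster held 55.8% of the summed Hox level of 4885 TPM, HoxC 18.6%, HoxA 17.3% and HoxD 8.28%. The highest gene was Hoxb9 (chromosome 11, 96271457 to 96276595, plus strand) at 835 TPM (825 to 845), followed by its neighbour Hoxb8 at 717 (707 to 727). Their ratio was 1.17 (1.14 to 1.19). Hoxb6 stood at 354 TPM, Hoxb3 at 330, Hoxb7 at 204, Hoxb5 at 163 and Hoxb2 at 83.8, while Hoxb4 reached 37.0 between its 2 higher neighbours.

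By paralogue group, the summed level rose from 9.22 TPM in group 1 to 956 in group 8 and 1174 in group 9, and fell to 377 in group 10, 67.4 in group 11, 27.1 in group 12 and 5.30 in group 13. The course between groups 1 and 8 was uneven, with 437 TPM in group 3, 295 in group 4 and 367 in group 7. Groups hold 2 to 4 genes, so that their sums are not on an equal footing. Hoxb8 and Hoxb9, at 717 and 835 TPM, make up most of the sums of groups 8 and 9. In HoxA the highest were Hoxa5 (183 TPM), Hoxa7 (163), Hoxa9 (154) and Hoxa10 (112), and Hoxa6 was at 94.0. Hoxa7 and Hoxa9 could not be ordered, and the remaining members were Hoxa3 at 60.7 TPM, Hoxa2 at 35.1, Hoxa4 at 30.9 and Hoxa11 at 9.88. In HoxC the order was Hoxc8 (203 TPM), Hoxc6 (195), Hoxc10 (159), Hoxc4 (121) and Hoxc9 (118), with overlap within the first pair and within the last. Hoxc5 stood at 60.6 TPM, Hoxc12 at 25.7 and Hoxc11 at 21.5.

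HoxD was the lowest cluster. Hoxd4 and Hoxd10 both stood at 106 TPM, a ratio of 1.01 (0.949 to 1.07), followed by Hoxd9 at 67.5, Hoxd3 at 46.4, Hoxd8 at 36.6 and Hoxd11 at 36. Hoxd3 and Hoxd4 share 60.2% and 46.8% of their words with other listed genes, chiefly the read-through gene Gm28230, so that their values are uncertain. The group 13 genes and the group 1 genes of HoxB and HoxD were low, whereas HoxC begins with Hoxc4 at 121 TPM. Hoxb1 and Hoxd1 stood at 2.19 and 3.56 TPM, Hoxd12 at 1.46, Hoxc13 at 4.67, Hoxd13 at 0.572 and Hoxa13 at 0.0638 (2 counts), and Hoxb13 had no counts, which allows up to 0.105 TPM.

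**Figure D2:**
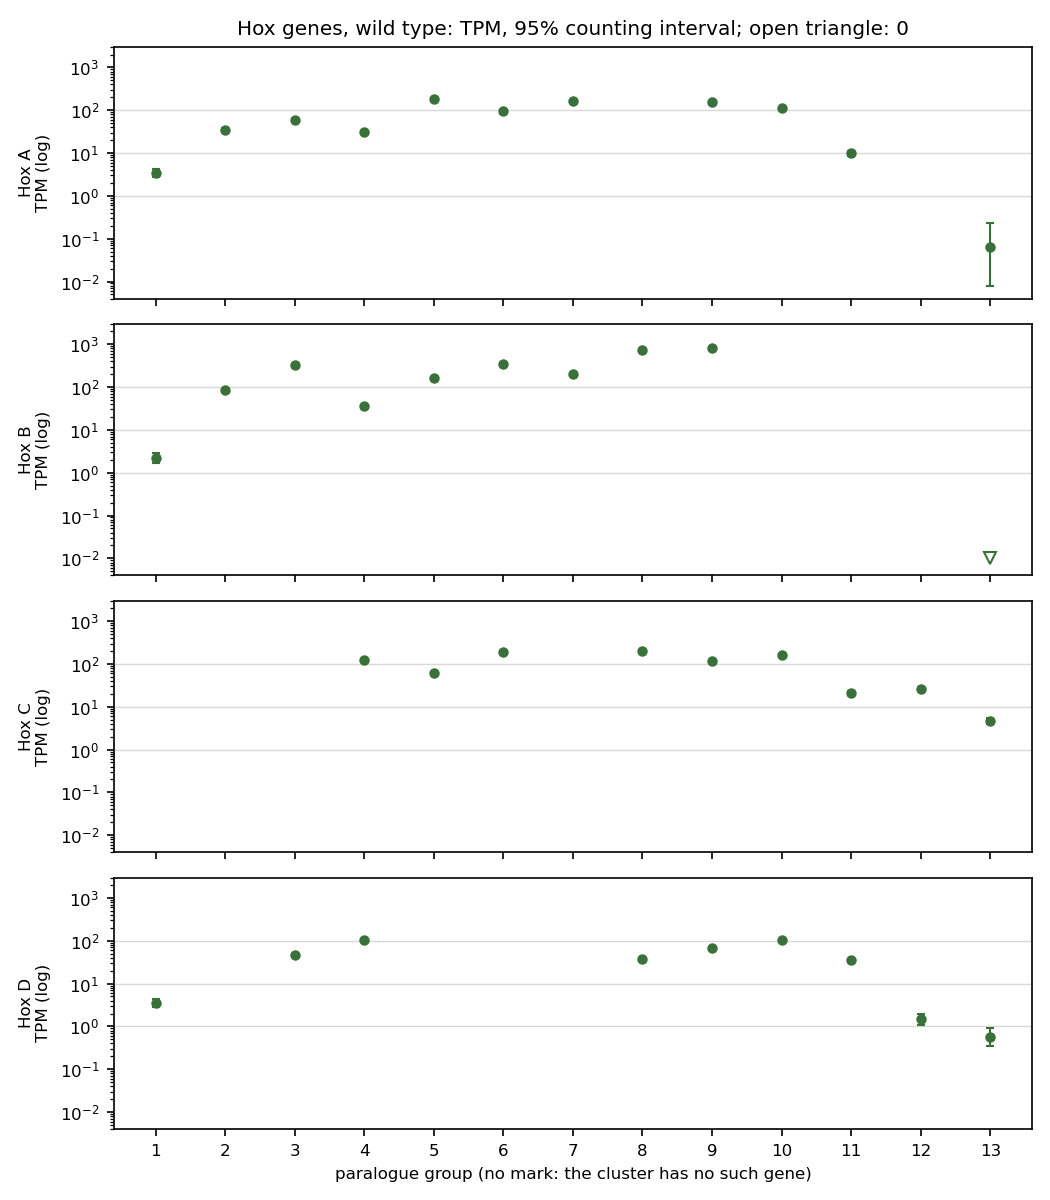
TPM (log axis) of the 39 Hox genes of the wild-type library by paralogue group, 1 panel per cluster, with 95% counting intervals; an open triangle marks a gene with no counts. HoxB is highest in groups 8 and 9 with 717 and 835 TPM, HoxA at Hoxa5 (183) and HoxC at Hoxc8 (203). In HoxD, Hoxd4 and Hoxd10 are highest, both at 106 TPM. In HoxA, HoxC and HoxD levels drop from group 10 to group 11.

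Genes of more anterior brain regions were at or near 0. Of 15 forebrain genes, 7 had no counts, among them Emx2, Six3, Dlx5, Dlx6, Hesx1 and Rax. Genes without counts are common, as only 53.1% of all listed genes had TPM above 0. Only 1 of the 15 forebrain genes passed 1 TPM, a level reached by 64.0% of nuclear protein-coding genes. The midbrain genes Otx2 and En2 had no counts, and Fgf8 stood at 0.145 TPM. Hindbrain and midbrain factors that are also made in spinal interneurons stood higher, with Tfap2b at 85.2 TPM, Pax8 at 66.1 and Gbx2 at 46.7. The defining neuronal, progenitor and Hox genes of the labelled tissue were thus present, and Emx2 and Otx2, of forebrain and midbrain, had no counts.

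Other tissues left unequal traces. Globin genes were high, with Hba-a1 at 1318 TPM (1295 to 1342), Hba-a2 at 1143, Hbb-bs at 1094, the embryonic Hbb-y at 882, Hbb-bt at 568 and the embryonic Hba-x at 97.6. The α genes share 72.3% and 89.3% of their words with each other, and the adult β genes 53.2% and 58.3%, so that reads of each pair could be divided in more than 1 way. Hbb-y, which shares none, was 85.0 times (68.5 to 107) above the other embryonic β gene Hbb-bh1, at 10.4 TPM. Non-globin erythroid genes were low (Alas2 12.8 TPM, Slc4a1 2.51, Gata1 no counts).

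Sensory ganglion genes were present. P2rx3, an ATP receptor gene of pain neurons, stood at 24.2 TPM, Avil at 10.2 and the sodium channel gene Scn10a at 7.05. Runx1, Trpv1, Runx3 and Scn11a were lower, at 3.85, 3.16, 1.94 and 0.347 TPM. The members that dorsal root ganglia share with the cord were higher, namely Prph (208 TPM), Ntrk2 (99.9), Tlx3 (93.1) and Pou4f1 (75.2). Over the whole list of 18 the sum was 792 TPM. The list median was 23.1 TPM, and 6.47 without the members that another list also holds. Of all members of the list 17 passed 1 TPM and 12 passed 10 TPM, against 64.0% and 47.4% of nuclear protein-coding genes. The Schwann cell gene Erbb3 stood at 7.58 TPM. The part of ganglia in the values of shared genes such as Isl1, Prph and Pou4f1 was not tested.

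Mesenchymal genes had a median of 23.8 TPM, led by Col3a1 at 112, Crabp2 at 101, Col1a2 at 86.7 and Dcn at 65.0, with Col1a1 at 58.8 and the meningeal factors Foxc1 and Foxc2 at 4.86 and 4.66. Endothelial genes had a median of 19.8 TPM, led by the barrier genes Cldn5 (67.7 TPM), Slc2a1 (56.7) and Mfsd2a (36.6), with Egfl7 at 31.4, Cdh5 at 26, Kdr at 22.4 and Pecam1 at 20.8. Pericyte genes included Vtn (74.7 TPM), Rgs5 (44.3), Pdgfrb (18.9) and Abcc9 (10.7), whereas the smooth muscle genes Acta2 and Myh11 stood at 5.76 and 0.381. Microglial genes had a median of 7.16 TPM, with C1qc at 20.6, C1qb at 19.8, C1qa at 19.2, Csf1r at 10.9, Cx3cr1 at 8.03 and Aif1 at 3.12. Ptprc and Itgam stood at 0.948 and 0.314 TPM, and 66.3% of the 50-base words of Itgam also occur in another gene. Of the 16 microglial members 5 (31.2%) passed 10 TPM, against 47.4% of nuclear protein-coding genes.

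Genes of structures farther from the cord were low. Of 17 muscle genes 10 passed 1 TPM, and of 13 epidermal genes 8, shares near the 64.0% of nuclear protein-coding genes. None in either list passed 10 TPM, which 47.4% of those genes did (highest Mylpf at 7.37 and Krt10 at 7.0, with the muscle factor Myod1 at 0.453). Of 11 liver and gut genes, 8 had no counts, among them Alb, Afp and Ttr, where 53.1% of all listed genes had TPM above 0. The highest of the 11, Sox17 at 8.62 TPM, is also an endothelial gene. In the cartilage list only Col2a1 (51.2 TPM), Sox9 (28.6) and Col11a1 (22.1) passed 10 TPM, while the cartilage matrix gene Acan stood at 0.335.

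Signalling genes differed by role. Of the Wnt ligands, Wnt7b (56.6 TPM) and Wnt7a (21.4), made in the ventricular zone and by neurons, led Wnt5a (15.6) and Wnt4 (13.6), and Wnt7b exceeded Wnt7a 2.64 times (2.45 to 2.86). The roof plate ligands Wnt1 and Wnt3a were at 4.76 and 1.33 TPM. Of 19 ligands 4 (21.1%) passed 10 TPM, a level reached by 47.4% of nuclear protein-coding genes. Of the receptors and transducers 18 of 27 (66.7%) passed 10 TPM. Ctnnb1 itself, the gene altered in the other genotypes, stood at 482 TPM (475 to 489), Gsk3b at 143, Dvl3 at 128 and Apc at 110. The receptor genes Fzd1 and Fzd2 stood at 24.4 and 36.6 TPM.

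In the Notch list 18 of 20 members passed 10 TPM, against 47.4% of nuclear protein-coding genes, and the list ran from Dll4 at 6.10 TPM to the nuclear mediator Rbpj at 75.4. Rfng (62.6 TPM), the effector Hes5 (57.9) and the ligand Dll1 (54.6) followed, and the receptors Notch1, Notch2 and Notch3 stood at 48.5, 16.5 and 31.0. In the Hedgehog list the receptor and target gene Ptch1 was highest at 40.8 TPM, followed by Smo at 36.5, Sufu at 34.5 and Gas1 at 29.5. The Gli factors stood together at 6.43 to 7.08 TPM, and the ligands Ihh and Dhh at 0.586 and 1.55.

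Axon guidance genes formed the highest signalling list, with a median of 82.6 TPM. All 28 members were above 10 TPM, against 47.4% of nuclear protein-coding genes. L1cam stood at 174 TPM, Ntn1 at 169, Plxna2 at 151 and Robo2 at 147. The netrin receptors Dcc and Unc5a were at 72.8 and 27 TPM, and Robo3, which lets commissural axons approach the midline, was at 83.9 (81.5 to 86.4). Of the Slit repellents Slit1 stood at 136 TPM, Slit2 at 81.2 and Slit3 at 15.6.

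Families of transcription factors were uneven within themselves. Behind Sox4 and Sox11, the Sox family continued with Sox12 at 170 TPM and Sox2 at 112. Of its 19 members 15 passed 10 TPM, beside 47.4% of nuclear protein-coding genes. Sox4 was 1.61 times (1.58 to 1.64) Sox11 per length, but Sox11 had more counts, 30925 against 28725. The LIM homeodomain family was led by Lhx1 (122 TPM), Lhx5 (103), Lmx1b and Isl1, and the forebrain members Lhx6 and Lhx8 stood at 0.310 and 0.0738. Of 9 Pax genes, Pax2 and Pax8 led with 110 and 66.1 TPM, then Pax6 (28.2) and Pax3 (14.4), and Pax4 had no counts. In the Pou family Pou6f1 (108 TPM), Pou4f1 (75.2), Pou2f2 (61.5) and Pou3f3 (56.5) led, and all 11 neighbouring pairs lay apart. Factors made across many neuron classes were high as a list, with 30 of 31 above 10 TPM, against 47.4% of nuclear protein-coding genes. Ebf3 (397 TPM), Meis2 (221), Pbx3 (215) and Tcf12 (167) were highest, and Onecut1, Onecut2 and Onecut3 were at 11, 13.0 and 7.35.

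All 26 RNA-binding genes passed 10 TPM, a level reached by 47.4% of nuclear protein-coding genes. Elavl3, a stabiliser of neuronal mRNA, was highest at 367 TPM, followed by Rbfox2 at 317, Ptbp2 at 307 and Rbfox1 at 274. The ubiquitous Elavl1 stood at 57.2 TPM. Ptbp1, a splicing repressor of progenitors whose place its paralogue Ptbp2 takes in neurons, was at 67.2 TPM, and Ptbp2 exceeded it 4.57 times (4.36 to 4.80). The lowest were Mbnl1 at 18.1 and Mbnl2 at 19.7, which promote adult splicing patterns.

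Genes of the imprinted list, a group known for high levels in embryos, all passed 10 TPM. That level was reached by 21.0% of all listed and 47.4% of nuclear protein-coding genes. Behind Nnat stood the long noncoding RNAs of one maternally expressed cluster, Rian at 1194 TPM and Meg3 at 996. Snhg11, also placed in the list, stood at 582 TPM, and whether it is imprinted was not examined. H19 stood at 163 TPM and its neighbour Igf2 at 78.6. Of the genes often used as references, Eef1a1, Eef2, Ppia (1637 TPM) and Rplp0 (1507) were highest, Gapdh stood at 637, and Hprt, B2m, Tbp and Gusb lay between 24.3 and 58.9.

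The transcript table shows which form of each gene carried its level. Of the 10884 genes at 10 TPM or more, 1864 had 1 listed transcript and 9020 had at least 2, with a median of 6. The most abundant transcript held a median of 71.7% of the gene's TPM. It was dominant, meaning at least 75%, in 4154 genes (46.1%), held at least 90% in 2347 genes and less than 50% in 2183. Dominance varied with the number of listed transcripts, falling from 86.0% of genes with 2 transcripts to 39.0% with 5 to 9 and 10.4% with 10 to 19. A typical gene had 2 transcripts that each held at least 10% of its TPM.

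**Figure D3:**
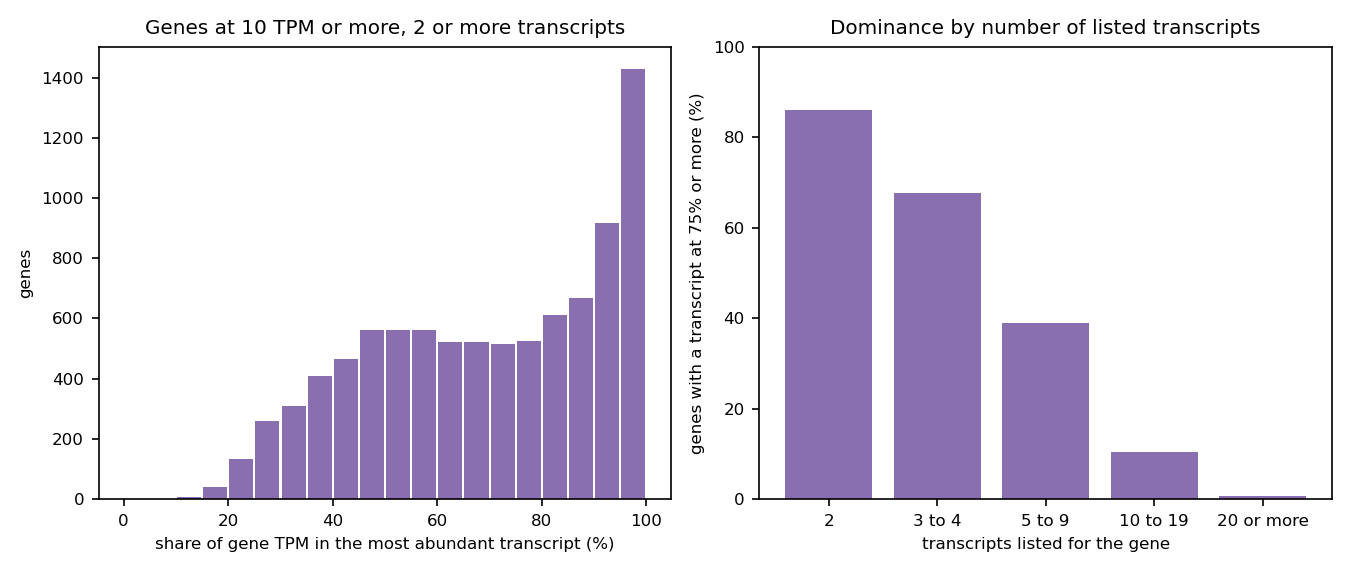
Left, number of genes by the share of gene TPM (%) in the most abundant transcript, for the 9020 genes at 10 TPM or more with at least 2 listed transcripts; right, percent of these genes with a transcript at 75% or more, by number of listed transcripts. The left distribution is highest in the last bin, near 100%, and the right bars fall from 86.0% to 0.699%.

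A panel of 74 genes known for alternative forms in nervous tissue was less dominated by 1 transcript. Of 69 panel genes that could be scored, 14 (20.3%) had a dominant transcript, beside 46.1% of all scored genes, and the median share was 49.8%. The panel was picked for alternative splicing and its genes have many listed transcripts. Among panel genes with at least 4 listed transcripts, dominance was most complete for Stmn2, where Stmn2-201 held 99.1% (99.0 to 99.2, exact binomial interval carried over to TPM), followed by Malat1 (95.4%) and Mapt. Mapt encodes tau, and Mapt-204, with 372 residues, held 91.7% (91.3 to 92.1). Zfhx3 (86.4%), Cntn1 (84.6%), Dcx (81.4%) and Nfasc (80.7%) were also among the most dominated. Tubb3 has 2 listed transcripts, of which Tubb3-201 held 99.8%.

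By TPM the most even splits, taken as the smallest gap between the first 2 transcripts, were found in Camk2d, Nlgn1, Cadm1, Grin1, Robo3, Meg3, Camk2b and Tcf4. In the long noncoding RNA Meg3 the first 2 held 34.7% and 31.6%, but 83.7% and 7.85% of counts, as the first is far longer. In Nlgn1, an adhesion gene of the postsynaptic side, transcripts encoding 843 and 814 residues held 52.5% and 47.5% of the coding TPM. In Grin1, the obligatory NMDA receptor subunit gene, which is known for splicing of its N-terminal cassette and its C-terminal tail, the first 4 transcripts encode 906, 922, 959 and 943 residues. They held 21.9%, 19.4%, 19% and 11.9% of its TPM. The first pair of these overlapped in their intervals (20.3 to 23.5, and 18.0 to 20.9). In Cadm1 transcripts of 428, 474 and 456 residues held 30.6%, 29.1% and 25.9%. Camk2b was split between forms of 542 residues (39.1%) and 503 residues (35.7%). By counts the first form held 50.6% in Cadm1 and 53.3% in Camk2b, against 19.1% and 24.0% for the second, so that these splits are even per length only. In Tcf4, with 62 listed transcripts, the first held 13.6%.

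Further receptor and enzyme genes of the panel were split between forms with known differences. Ntrk2, the BDNF receptor gene, has 2 of its 10 annotated transcripts in the deposited table. Ntrk2-201, which encodes the 821 residues of the receptor with its kinase, held 56.0% (55.0 to 56.9), and Ntrk2-202, which encodes 476 residues without the kinase, held 44.0%. These residues are those of GENCODE vM21, whose transcript lengths for Ntrk2 differ from the deposited ones by over 2%. Cdc42, a GTPase gene with alternative last exons of equal coding length, gave 56.6% for Cdc42-201 and 43.4% for Cdc42-202, both of 191 residues. Pkm was split between Pkm-202 (50%) and Pkm-201 (30.4%), which both encode 531 residues. Transcripts of Pax6 with 422 residues held 54.5% of its coding TPM and those with 436 residues 29.3%. Map2 gave 241 TPM for the long form of 1828 residues and 119 TPM for Map2-206, of 498 residues. App had 1 listed transcript where GENCODE vM21 has 11, so that its forms could not be scored, and the same held for Ctnnd2.

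For some panel genes a transcript with a retained intron, or one annotated as a target of nonsense-mediated decay, held a large part of the gene's TPM. Robo3 is known to be made in forms that differ by a retained intron. Its coding transcript Robo3-202 (1402 residues) held 34.2% (32.9 to 35.5), Robo3-205, annotated as a decay target, 31.2% (30.0 to 32.5), and Robo3-206, with a retained intron, 27.7% (26.3 to 29.1). The decay-annotated Robo3-205 has an open frame of 1345 residues, nearly that of the coding form. In Srrm4, a neuronal splicing regulator, the coding Srrm4-201 held 48.4% and Srrm4-203, with a retained intron, 43.8%. In Camk2d the coding Camk2d-205 and the retained-intron Camk2d-225 held 23.9% and 23.4%, with overlapping intervals. In Gria2 the coding form held 36.6%, and 1 decay-annotated and 2 retained-intron transcripts held 18.7%, 17.9% and 16.7%. By counts the long coding form Gria2-201 held 60.6%.

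In Ctnnb1 such a transcript exceeded the coding form. Its most abundant listed transcript was Ctnnb1-209, of 2359 bases with a retained intron, at 232 TPM and 48.2% (47.4 to 48.9) of the gene. The full coding transcript Ctnnb1-201, of 781 residues, stood at 125 TPM and 26% (25.4 to 26.6), and the decay-annotated Ctnnb1-208 at 86.1 TPM and 17.9%. By counts, which are not divided by length, the shares were 40.9%, 33.9% and 22.8% in the same order. By TPM, the gene's level of 482 is mostly made of transcripts not annotated as coding. Whether reads from unspliced RNA enter such transcripts was not tested.

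**Figure D4:**
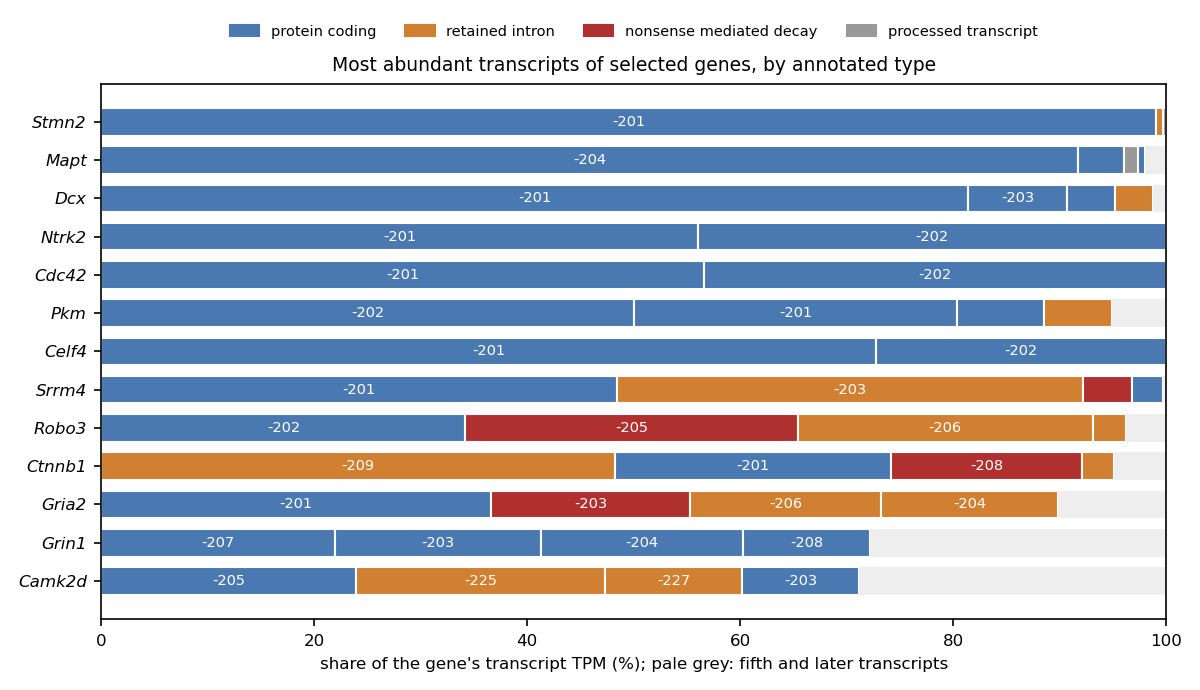
Share of gene TPM (%) in the 4 most abundant listed transcripts of 13 panel genes in the wild-type library, coloured by annotated type, with transcript numbers written in the larger bars. Stmn2 and Mapt are almost filled by 1 coding transcript, Ntrk2 and Cdc42 are split between 2, and in Robo3, Srrm4, Ctnnb1, Gria2 and Camk2d retained-intron or decay-annotated transcripts take a large part.

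Across the 10315 nuclear protein-coding genes at 10 TPM or more, transcripts annotated as coding held 88.4% of TPM, retained-intron transcripts 6.55%, decay-annotated ones 2.17% and other processed transcripts 2.53%. In 865 genes (8.39%) these 3 noncoding kinds made up at least 50%. Lists differed in the pooled share of coding transcripts. It was 98.6% for pan-neuronal genes, 99.2% for tubulins and 97.2% for growth cone genes, and none of the 20 pan-neuronal genes had a noncoding majority. It was 88.4% for RNA-binding genes, equal to the value over all genes, 83.5% for guidance genes, 76.8% for excitatory transmission and 65.3% for Wnt receptors and transducers, where Ctnnb1 weighs most. The median gene of the Wnt list had 98.1% coding TPM, and that of the guidance list 94.7%, against 94.6% over all genes, so that a few members carry the pooled values of these lists.

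The unit changed which transcript came first in 642 of the 9020 scored genes (7.12%). Of 1706 genes at 100 TPM or more, 111 changed, and the 5 with the largest TPM were Rian, Rpl7, Gnas, Eif4g2 and Hnrnpab. Rpl7-202, with a retained intron and 784 bases, held 49.6% of TPM, while the longer coding Rpl7-201 held 49.2% of TPM and 58.5% of counts. Eif4g2-206 of 3548 bases held 48.1% of TPM, and Eif4g2-213 of 7995 bases held 46.2% of TPM and 68.0% of counts. In Gnas, an imprinted gene with several promoters, Gnas-208 held 28.3% of TPM and Gnas-220 20.1% of counts. In Rian and Hnrnpab the switch was between 35.6% of TPM for Rian-213 and 48.5% of counts for Rian-202, and between 61.2% of TPM for Hnrnpab-203 and 50.4% of counts for Hnrnpab-201.

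Levels were then set beside promoter sequence, since vertebrate promoters fall into a CpG-rich kind, found at broadly used and developmental genes, and a CpG-poor kind, often with a TATA box, found at many tissue-restricted genes. Sequences of 300 bases (250 before to 50 after the start, RefSeq, GRCm38.p6) with a single promoter per gene were matched to 13579 nuclear protein-coding genes. The stretches below run from 100 bases before the start to 20 bases after it, 5′ to 3′ on the gene's strand, with CG dinucleotides and TATAA in capitals. They were chosen to show both kinds at genes of high level and at genes without counts.

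Tuba1a, chr15:98953482-98953601, minus strand, 10927 TPM: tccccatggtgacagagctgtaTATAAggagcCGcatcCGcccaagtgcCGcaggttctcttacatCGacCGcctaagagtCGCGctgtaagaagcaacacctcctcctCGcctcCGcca
Tubb2a, chr13:34077989-34078108, minus strand, 2210 TPM: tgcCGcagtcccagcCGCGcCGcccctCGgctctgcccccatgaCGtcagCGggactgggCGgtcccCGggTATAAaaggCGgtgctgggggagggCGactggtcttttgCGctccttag
Hba-a1, chr11:32283572-32283691, plus strand, 1318 TPM: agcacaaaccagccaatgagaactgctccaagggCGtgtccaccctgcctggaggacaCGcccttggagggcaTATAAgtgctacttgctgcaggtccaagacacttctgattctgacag
Hbb-bt, chr7:103813904-103814023, minus strand, 568 TPM: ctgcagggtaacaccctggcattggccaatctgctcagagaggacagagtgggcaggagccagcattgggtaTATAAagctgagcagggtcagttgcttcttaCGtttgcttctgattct
Npy, chr6:49822610-49822729, plus strand, 409 TPM: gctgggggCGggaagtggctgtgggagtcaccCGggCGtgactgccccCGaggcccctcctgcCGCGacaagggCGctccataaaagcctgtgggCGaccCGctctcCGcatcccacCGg
Hoxb8, chr11:96281805-96281924, plus strand, 717 TPM: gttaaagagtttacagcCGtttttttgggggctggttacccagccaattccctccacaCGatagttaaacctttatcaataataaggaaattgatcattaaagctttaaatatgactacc
Hoxa13, chr6:52260861-52260980, minus strand, 0.0638 TPM: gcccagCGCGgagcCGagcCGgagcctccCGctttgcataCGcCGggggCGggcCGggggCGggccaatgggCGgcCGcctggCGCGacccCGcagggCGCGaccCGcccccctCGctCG
Emx2, chr19:59458590-59458709, plus strand, no counts: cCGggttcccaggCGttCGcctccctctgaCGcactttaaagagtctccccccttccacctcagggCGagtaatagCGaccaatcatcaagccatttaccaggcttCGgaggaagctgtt
Alb, chr5:90460770-90460889, plus strand, no counts: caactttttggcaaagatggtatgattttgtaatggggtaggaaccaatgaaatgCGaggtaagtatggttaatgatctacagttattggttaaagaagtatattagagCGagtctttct

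The number of CG dinucleotides in these stretches was 9 for Tuba1a, 12 for Tubb2a, 11 for Npy, 20 for Hoxa13 and 7 for Emx2, and 2, 1, 2 and 2 for Hba-a1, Hbb-bt, Hoxb8 and Alb. A high CG number thus occurred both at abundant neuronal genes and at Hoxa13 and Emx2, which had 2 counts and none, and a low one also at the abundant Hoxb8. Over the full 300 bases the ratio of observed to expected CpG was 0.743 at Tubb2a and 0.918 at Hoxa13, against 0.188 at Hba-a1 and 0.0633 at Hbb-bt. At Hoxb8 the ratio was 0.970 and the GC content 42.3%. Its low CG number thus did not go with a low ratio. TATAA stood 50 to 11 bases before the start in Tubb2a and in both globin genes. In Tuba1a the same letters lay outside the window as counted from the RefSeq start, but the gene's annotated end at 98953551 lies upstream of that start, and counted from there they fall inside it. RefSeq starts and gene ends also differ for other genes shown, and all windows here use the RefSeq start.

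Across all matched genes CpG content rose with level. A ratio of at least 0.6 with at least 50% GC was found in 2.64% of 3518 promoters of genes not detected (95% exact binomial interval 2.14 to 3.23) and in 16.2% of 1627 under 1 TPM. The share was 48.8% of 2116 at 1 to 10 TPM, 77.3% of 5154 at 10 to 100 TPM and 81.9% (79.5 to 84.0) of 1164 at 100 TPM or more. The GC box letters GGGCGG on either strand ran the same way, from 8.27% to 71.0%, with 47.2% over all promoters. CCAAT on either strand did not follow level, at 40.9% of genes not detected and 40.1% of the highest band (39.2% overall). TATAA 50 to 11 bases before the start, on the gene's strand, fell from 13.4% of genes not detected to 1.32% at 10 to 100 TPM and stood at 3.26% at 100 TPM or more, with 5.91% over all. Genes are not independent replicates, and these shares describe the matched promoters.

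**Figure D5:**
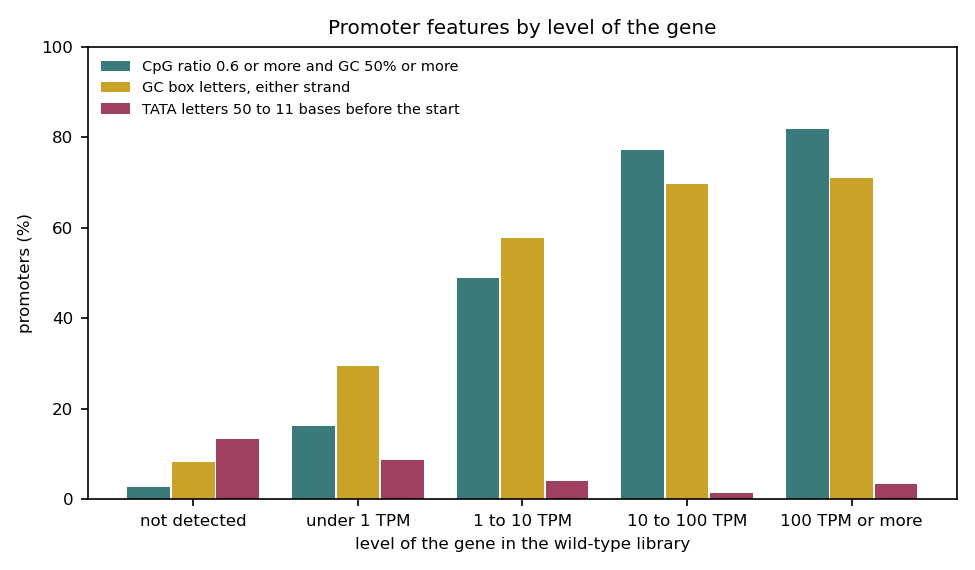
Percent of promoters (300 bases, 13579 nuclear protein-coding genes) with the CpG-rich definition, with GGGCGG on either strand and with TATAA 50 to 11 bases before the start, in 5 bands of TPM in the wild-type library. The first 2 rise across the bands, from 2.64% to 81.9% and from 8.27% to 71.0%, and the TATA share falls to 1.32% and is 3.26% in the highest band.

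The genes with TATAA in that window and the highest levels were Tubb3, Tubb2a, Eef2, Ppia, Hba-a1, Hba-a2, the ribosomal protein gene Rps26 and Hbb-bs. The letters thus occurred at some neuronal, general and blood genes, but unequally by list. They stood in 5 of 10 erythroid, 4 of 12 housekeeping and 2 of 9 pan-neuronal promoters, against 5.91% over all. None of 13 growth cone and none of 13 synaptic vesicle promoters had them. Over all matched promoters 46.6% were CpG-rich. Of 8 matched forebrain genes 5 had CpG-rich promoters, in a list whose 15 members had a median of 0.0847 TPM. Of the liver and gut genes 1 of 8 did, of the muscle genes 1 of 15 and of the epidermal genes 1 of 8. In lists with higher medians, none of 10 erythroid, none of 9 microglial and 2 of 10 astrocyte promoters were CpG-rich, and 11 of 13 for synaptic vesicle genes, 12 of 15 for cell division and 9 of 13 for dorsal interneuron factors.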

How the data were processed

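The wild-type spinal cord RNA was made into an mRNA-seq library from 1 ug of total RNA, per the labels' protocols. Named in the submitters' processing notes are Bowtie2 (2.3.2), CASAVA and GRCm38.p6, with no statement of what each was used for. Which program gave the counts, from which annotation release and with which strand setting, is not given in the sources used here. Overlapping and antisense genes can therefore not be told apart. The authors deposited estimated counts, TPM and FPKM per gene and per transcript, as named per the file headers. Deposited estimated counts were whole numbers, and 1046 of 79583 transcripts with a count had a TPM of 0. Deposited TPM was the main unit. Deposited FPKM was a constant 0.357 times TPM and was used as an alternative only.

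Gene TPM was taken as deposited. It differed from the sum of its transcripts for 9 genes (Junb is listed at 0 where its transcripts sum to 9.10). Transcript shares used the sum. Gene types, transcript types, lengths and residues came from GENCODE vM21, which held 99.6% of gene IDs. Deposited counts fitted these lengths within 2% for 95.0% of 10745 transcripts with at least 500 counts.

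Counts got exact Poisson intervals and shares exact binomial (Clopper-Pearson) intervals at 95%, ratios of 2 genes a conditional binomial one, computed in Python 3.11.15 with scipy 1.17.1. Since the reads carry no molecular identifiers, they may repeat a molecule, and all intervals cover counting error only. No test across samples was possible. Sequence sharing was measured as 50-base words of a gene's vM21 transcripts that recur in another gene, in percent. Scripts were tested on simulated data.

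The members and lists were chosen with earlier results of these data known. The rule for naming took the 20 most abundant genes (leaving out 12 mitochondrial and 7 provisional names ranked among them), the first 3 and 4 highest members of each list, all Hox genes and set members of the transcript panel. Other members named as examples, the ratios shown and the printed promoters were chosen after their values were seen. Some genes that this rule names are not reported here.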

Additional observations from a re-analysis of the deposited data

How the results depend on the processing

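The count of genes at 1 TPM or more stayed within 1.5 times of 17589 at 0.5 TPM, 2 TPM, 1 FPKM, a count of 20 and without provisional names and pseudogenes, ranging from 13849 to 20010, and was 17603 with transcript sums, an alternative chosen after seeing the data. The 100 most abundant genes held 23.1% of TPM, and 14.5% of counts, 18.3% without mitochondrial genes, and 16.2% also without their chromosome 1 copies (chosen after seeing the data). Genes with a dominant transcript numbered 6837 at a threshold of 50%, 2347 at 90% and 1852 among genes at 50 TPM or more, by construction of these settings. Shares of counts gave 5140, genes at 1 TPM or more 5879, and coding transcripts alone (chosen after seeing the data) 4127. Of 49 lists, 36 had a median member at or above the rank that 10 TPM marks, and 34 to 40 under the other units and memberships. The highest member of a list was kept in 28 of 49 lists by depth-scaled counts (CPM), which favour long transcripts, and in 40 by the most abundant transcript alone. The difference in CpG-rich promoters between the highest band and genes not detected was 79.3 percentage points by TPM and 81.3 by CPM. Without members that another list also holds, the rank of a list's median moved by up to 55.0 percentage points. No paired analysis was possible because only 1 library was described, and no replicate could be left out. Values under about 1 TPM rest on few counts, and differences between embryos cannot be seen in 1 library.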

Other observations

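Transcripts not annotated as coding were frequent among genes of the SR family of splicing factors and their relatives, a list added after the other lists had been seen. Over 13 such genes, coding transcripts held 64.1% of pooled TPM, retained-intron transcripts 22.9% and decay-annotated ones 9.70%, beside 88.4%, 6.55% and 2.17% over all nuclear protein-coding genes at 10 TPM or more. At least 50% of TPM was noncoding in 3 of the 13, Tra2a (82.1%), Srsf11 (67.0%) and Srsf6 (50.4%). In Tra2a, at 151 TPM, retained-intron and decay-annotated transcripts held 41.4% and 40.7%. Srsf7 and Srsf12, at 202 and 49.3 TPM, had no noncoding share in the table.

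By type of gene, protein-coding genes held 92.6% of TPM, with the mitochondrial ones included, unprocessed pseudogenes 3.0%, long intergenic RNAs 0.871% and processed pseudogenes 0.803%. Of 8308 processed pseudogenes, 702 (8.45%) reached 1 TPM. The ribosomal RNA gene CT010467.1 on chromosome 17 stood at 2013 TPM in this mRNA library.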
